A study of Mus musculus with 4 samples.

Results

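The 10 genes described here encode cytokines that helper T-cells secrete: Il3, Csf2, Il4, Il5, Il13, Il9, Il17a, Ifng, Il21 and Il22. They were chosen by name, and every probe set that the array annotation assigned to 1 of them alone was taken, which gave 11 probe sets of 41345 and 10 genes of 22180. Csf2 had 2 probe sets and each other gene had 1. The RNA was that of Tregs, which carry Foxp3 and keep other lymphocytes in check, sorted from cultures of cells of NOD mice, which become diabetic by autoimmunity. Every culture ran for 5 days with G-BMDCs, that is, dendritic cells raised from marrow in GM-CSF, and no treatment beyond this co-culture is named in the labels. Tregs that still held a division-tracking dye were taken as resting and those that had lost part of it as proliferating, with 2 arrays per group. The dye is CFSE by the labels and Cell Trace Violet by the methods, and the age of the mice was not given for these arrays in the sources used here. It is likewise not stated whether the arrays of a group stand for separate cultures, and every p-value therefore refers to the spread between these samples alone, which may be technical.

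Helper T-cells are grouped by the cytokines they make. Th1 cells make IFN-γ (Ifng), which activates macrophages, Th2 cells make IL-4, IL-5 and IL-13 (Il4, Il5, Il13), which act on B-cells, eosinophils and epithelia, and Th17 cells make IL-17A and IL-22 (Il17a, Il22), which act on epithelia and recruit neutrophils. IL-9 (Il9) is a growth factor for mast cells and T-cells, IL-21 (Il21) is made by follicular helper cells and helps B-cells, and IL-3 and GM-CSF (Il3, Csf2) are growth factors of myeloid cells that many activated T-cells release. Tregs are known for holding most of these genes low, and Foxp3 represses several of them.

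The values are the authors' log2 expression values, and a difference of 1 on this scale is a 2-fold change. In resting Tregs, Cd3d read 9.15 and 9.16 and Foxp3 8.30 and 8.26, well above 6.76, a level under which most olfactory receptor genes lay. Other markers were close to that level in resting Tregs: Cd4 read 7.25 and 6.97, Ikzf2 6.64 and 6.87 and Ctla4 6.69 and 6.73. All 10 T-cell and Treg markers were higher in proliferating Tregs, by 1.44 to 2.99 on the log2 scale. Lower there were the 10 neutrophil markers and the 8 B-cell markers with a level. The mean log2 level of the neutrophil list was 9.15 and 9.26 in resting Tregs against 6.14 and 6.07 in proliferating Tregs, and that of the B-cell list was 8.57 and 8.69 against 6.03 and 6.04. Their part in the cytokine results was not tested. In sorted bulk samples of this kind, fewer cells of a type and less RNA per cell cannot be told apart.

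Of the 10 cytokine genes, 7 were higher in proliferating Tregs, 3 did not pass the test and none was lower (limma with Benjamini-Hochberg adjustment over all 22180 genes, adjusted p under 0.05). After this adjustment, 25.6% of all genes were higher and 34.5% lower. At an unadjusted p under 0.05 from limma the counts were 7 higher and 0 lower as well, where 6011 and 8458 of all 22180 genes were. The 7 were Csf2, Il3, Il13, Il9, Il5, Ifng and Il4, and the 3 that did not pass were Il17a, Il21 and Il22. The median log2 fold change of the 10 genes was 1.62, against -0.17 over all genes. Both proliferating arrays lay above both resting arrays for 8 of the 10 genes, as they did for 33.0% of all genes, and the groups overlapped for Il21 and Il22. Other tests called fewer members. With Benjamini-Hochberg adjustment, the methods' t-test left Csf2, Il3, Il13 and Il9 (4 members higher and 0 lower, where 12.5% and 6.9% of all genes were), and its paired form left none (0 members, where 0.0% of all genes were higher and 0.00902% lower). With dim genes left out, Csf2, Il3 and Il13 were the 3 members still tested, and 58.3% of the genes tested were higher and 22.5% lower. Csf2 and Il3 passed that filter on the mean only through their high proliferating arrays, so that their call there supports nothing further. Csf2, Il3, Il5, Il9, Il4 and Ifng all had both resting arrays below 6.76, the level under which most olfactory receptor genes lay, and their folds are therefore set against a signal that was not clearly above background.

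**Figure D1:**
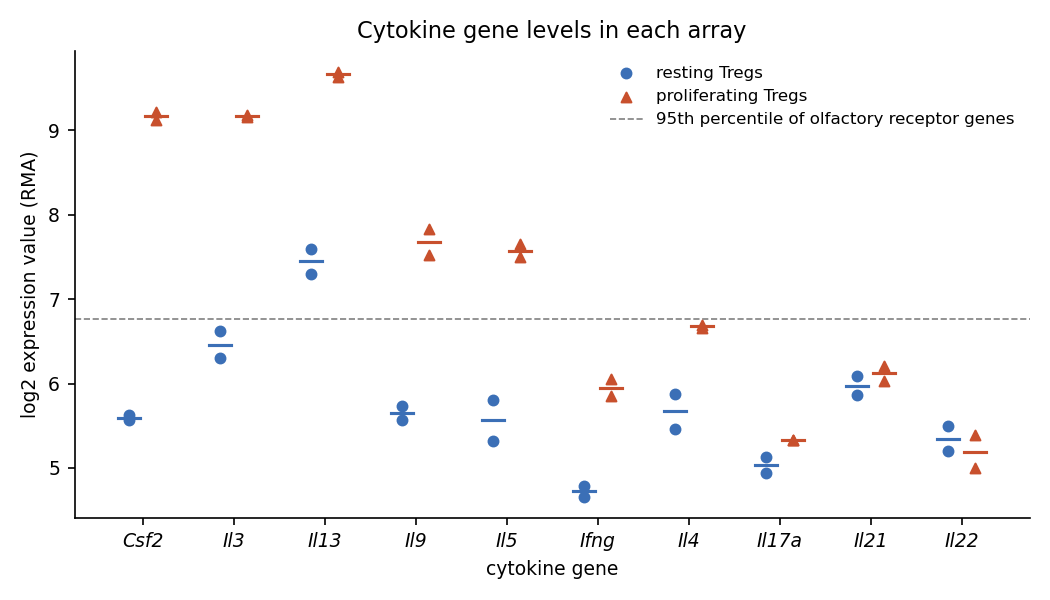
The log2 expression value of each cytokine gene (y axis) in the 2 resting arrays (blue circles) and the 2 proliferating arrays (red triangles), with the group mean as a short bar, genes ordered by their change. Csf2, Il3, Il13, Il9 and Il5 lie above the dashed line at 6.76, the 95th percentile of olfactory receptor genes, in both proliferating arrays, while Ifng and Il4 lie below it in all 4 arrays.

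By its brighter probe set, Csf2 changed most among the members. It is the gene of GM-CSF, which drives the growth of granulocytes, macrophages and dendritic cells. Its log2 value was 5.56 and 5.62 in resting Tregs against 9.21 and 9.12 in proliferating Tregs. Both resting arrays were low and both proliferating arrays high, with a gap of 3.50 between them. By this probe set Csf2 was 11.9-fold higher in proliferating Tregs (log2 fold change 3.57, standard error 0.13, adjusted p = 7.67e-06 from limma), and ranked 21 among the increases of all 22180 genes. The other probe set of Csf2 read 5.59 and 5.96 in resting Tregs against 7.66 and 7.56 in proliferating Tregs. In a fit of all probe sets it passed the test too (adjusted p = 9.43e-05 from limma), but its log2 fold change was 1.84 (3.58-fold), smaller than the changes of Il3, Il13, Il9 and Il5. With the mean of both probe sets the log2 fold change of Csf2 was 2.71, level with that of Il3, so that both its size and its first place depended on the probe set.

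Il3 encodes IL-3, a growth factor of early myeloid cells, mast cells and basophils. Its level was 6.30 and 6.62 in resting Tregs against 9.16 and 9.19 in proliferating Tregs, which left the groups 2.54 apart. The gene was 6.55-fold higher in proliferating Tregs (log2 fold change 2.71, standard error 0.15, adjusted p = 1.58e-05 from limma). The arrays were scaled in 6 ways, as described below. Among the members, only Il3 and Csf2, the latter by its brighter probe set, passed the test as higher under each. The other probe set of Csf2 was not fitted under these scalings. Its log2 fold change of 1.84 was smaller than the downward shift of 1.97 that centring on the Cd3 genes brought.

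Among the Th2 cytokines, Il13 encodes IL-13, an inducer of mucus and of alternative macrophage activation. It read 7.60 and 7.30 in resting Tregs against 9.63 and 9.69 in proliferating Tregs. Il13 was the only member whose resting arrays both lay above 6.76, the 95th percentile of the mean levels of 1105 olfactory receptor genes, which T-cells are not known to use. The gene was 4.65-fold higher in proliferating Tregs (log2 fold change 2.22, standard error 0.15, adjusted p = 2.82e-05 from limma). Il5 encodes IL-5, the growth factor of eosinophils, and read 5.81 and 5.32 in resting against 7.65 and 7.50 in proliferating Tregs. Its resting arrays differed by more than those of any other member (SD 0.35 over 2 arrays), and the gap of 1.69 between the groups was larger than that difference. Il5 was 4.03-fold higher in proliferating Tregs (log2 fold change 2.01, standard error 0.18, adjusted p = 1.00e-04 from limma).

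Il4, the gene of the cytokine that directs both Th2 differentiation and IgE switching, changed least of the 7. It read 5.88 and 5.46 in resting Tregs against 6.69 and 6.66 in proliferating Tregs. The groups did not overlap, but all 4 values lay below the 95th percentile of the olfactory receptor genes. The difference was 2.01-fold (log2 fold change 1.01, 95% interval 0.62 to 1.39, adjusted p = 0.00167 from limma), and its log2 fold change turned to -0.41 with arrays centred on housekeeping genes (adjusted p = 0.0427) and -0.96 with arrays centred on the Cd3 genes (adjusted p = 4.38e-04).

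Il9 read 5.74 and 5.57 in resting Tregs against 7.83 and 7.53 in proliferating Tregs. Both proliferating arrays were high and the groups lay 1.79 apart. The gene was 4.08-fold higher in proliferating Tregs (log2 fold change 2.03, standard error 0.15, adjusted p = 4.73e-05 from limma), close in size to Il5.

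Ifng, the Th1 cytokine gene, read 4.66 and 4.79 in resting Tregs against 5.85 and 6.06 in proliferating Tregs. The groups did not overlap and lay 1.06 apart, yet all 4 values stayed below the 95th percentile of the olfactory receptor genes. Its difference was 2.34-fold (log2 fold change 1.23, 95% interval 0.90 to 1.55, adjusted p = 3.05e-04 from limma), and the log2 fold change was -0.19 with arrays centred on housekeeping genes (adjusted p = 0.206) and -0.74 with arrays centred on the Cd3 genes (adjusted p = 8.28e-04).

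The cytokine genes of Th17 and follicular helper cells did not pass the test. Il17a read 5.13 and 4.94 in resting Tregs against 5.33 and 5.33 in proliferating Tregs, so that the groups were separate by 0.20 only. Its log2 fold change was 0.30 (95% interval -0.0159 to 0.61, adjusted p = 0.0893 from limma). Il21 read 6.08 and 5.87 against 6.03 and 6.21, with a log2 fold change of 0.14 (95% interval -0.19 to 0.48, adjusted p = 0.408 from limma). Il22 read 5.20 and 5.49 against 5.39 and 5.00, with a log2 fold change of -0.15 (95% interval -0.57 to 0.26, adjusted p = 0.473 from limma). In Il21 and Il22 the resting and proliferating arrays were intermixed. All values of the 3 genes lay within the range of the olfactory receptor genes, so no low level was read as absence. Mice carry a copy of Il22 close to it in sequence, Iltifb, whose own probe set read 4.81 and 3.74 against 3.96 and 4.22 (adjusted p = 0.621), and signal of the pair may be shared.

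How far the arrays are comparable in scale bears on each of these values. The median log2 fold change of all genes was -0.17 on the deposited values, -0.0647 after quantile normalization, 0.0590 after centring on the median, 0.0619 after centring on the olfactory receptors, -1.59 with 9 housekeeping genes as the centre and -2.14 with Cd3d, Cd3e and Cd3g as the centre. The housekeeping and Cd3 genes were themselves higher in proliferating Tregs, so centring on them moved all genes down by 1.42 and 1.97. With the housekeeping centring 5 members were higher and 4 lower, where 4.16% and 88.4% of all genes were. With the Cd3 centring 2 members were higher and 5 lower, where 1.48% and 94.7% of all genes were. Csf2, fitted by its brighter probe set alone, and Il3 then still rose, with log2 fold changes of 1.60 and 0.74. Il13, Il9 and Il5 stood at 0.25, 0.0580 and 0.0407 and did not pass the test. Relative to Cd3 RNA, then, 2 members were called higher in proliferating Tregs. Il4, Ifng, Il17a, Il21 and Il22 were called lower, but all their values lay below 6.76, the olfactory limit. A signal near background is moved down by the shift of 1.97 alone, so these 5 calls do not show a fall of the RNA. Centring on the median or on olfactory receptors, or quantile normalization, called 8 members higher, as Il17a passed the test too with log2 fold changes of 0.53, 0.53 and 0.56. Of all genes, 32.8%, 32.9% and 22.1% were higher and 18.2%, 18.1% and 23.7% lower with these 3 scalings.

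**Figure D2:**
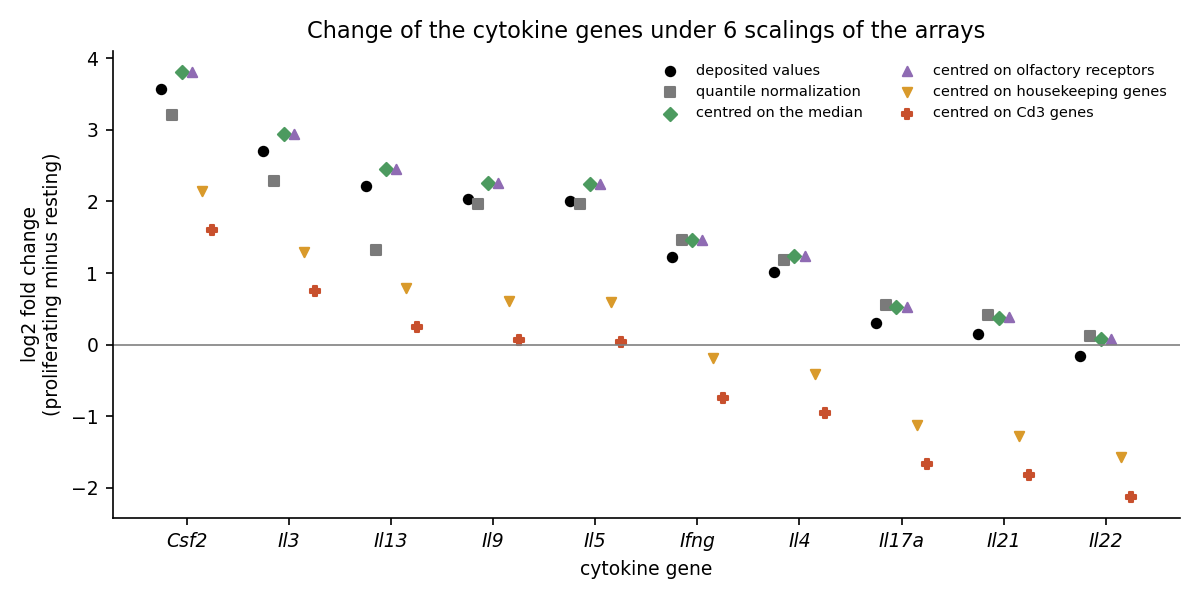
The log2 fold change of each cytokine gene (proliferating minus resting, y axis) on the deposited values and after 5 other scalings of the arrays, with 1 symbol for each scaling and no error bars. Csf2 is shown by its brighter probe set. Csf2, Il3, Il13, Il9 and Il5 stay above 0 under all 6, whereas Ifng, Il4, Il17a and Il21 fall below 0 when arrays are centred on the Cd3 genes or on housekeeping genes.

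The position of the members was examined next, from the RefSeq gene table of GRCm38.p6, since the value table names no build. Il3, Csf2, Il4, Il5 and Il13 lie on chromosome 11, Ifng and Il22 on chromosome 10, Il9 on chromosome 13, Il17a on chromosome 1 and Il21 on chromosome 3. All 5 members on chromosome 11 were higher in proliferating Tregs on the deposited values, where 25.6% of all genes were. With arrays centred on the Cd3 genes, only Il3 and Csf2, the latter by its brighter probe set, were higher. Il5 and Il13 then did not pass the test and Il4 was lower. Within 200 kb of any member lay 46 further genes with a level, of which 12 were higher, 13 lower and 21 did not pass the test, with a median log2 fold change of -0.11. These counts lie near the shares over all genes (25.6% higher and 34.5% lower).

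In the Th2 locus the order was Kif3a, Il4, Il13, Rad50, Il5 and Irf1. Rad50, a DNA repair gene whose introns hold the locus control region of the Th2 cytokines, read 5.97 and 5.66 in resting against 7.18 and 7.46 in proliferating Tregs, a 2.84-fold increase (adjusted p = 2.49e-04 from limma). Kif3a, the gene of a ciliary motor, and Irf1, the gene of an interferon-induced transcription factor, were higher as well, by 0.76 and 1.30 on the log2 scale. All 4 values of Kif3a, like those of Il4, lay below 6.76. On the outer side of Kif3a, A430108G06Rik was lower (log2 fold change -0.42), as were Gm19835, Sowaha and Shroom1 further out. Uqcrq on that side was higher by 1.87 (adjusted p = 5.12e-05 from limma), more than Rad50, Irf1, Kif3a or Il4. Septin8, Gdf9, Leap2 and Aff4 on that side did not pass the test, nor did Gm12216 beyond Irf1 (0.0280). With arrays centred on the Cd3 genes 1 of the 46 neighbours was higher and 43 were lower, near the 1.48% and 94.7% of all genes. Next to Il3, the fatty acid ligase gene Acsl6 was 1.57-fold lower in proliferating Tregs (adjusted p = 0.00629), and the collagen hydroxylase gene P4ha2 was 1.33-fold lower beyond Csf2 (adjusted p = 0.0243). Fnip1, the gene of a folliculin-interacting protein, was 1.40-fold higher in the same region (adjusted p = 0.0147), with all 4 values below 6.76.

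**Figure D3:**
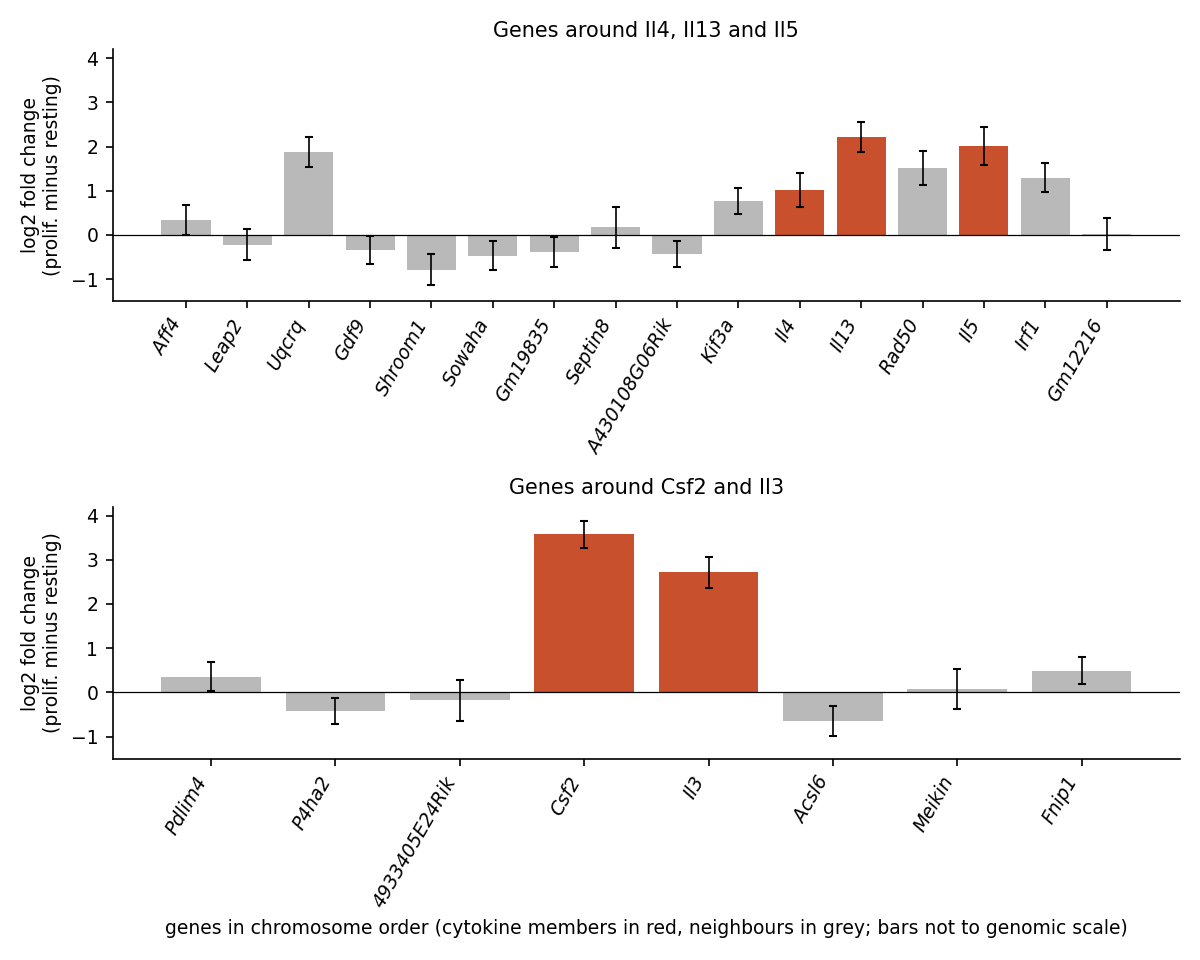
The log2 fold change (proliferating minus resting) of every gene with a level near the chromosome 11 members, in their order along the chromosome and not to genomic scale, with 95% intervals as error bars. In the upper panel Kif3a, Il4, Il13, Rad50, Il5 and Irf1 are all above 0, and Uqcrq (1.87), outside this run, is higher too. In the lower panel Csf2 (3.57) and Il3 (2.71) stand among neighbours between -0.65 and 0.48.

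On the other chromosomes, some members lie beside further cytokine genes. Il2, the gene of the T-cell growth factor, lies near Il21 and read 5.00 and 5.04 in resting against 8.76 and 8.99 in proliferating Tregs, a 14.5-fold increase over a resting signal below 6.76 (adjusted p = 7.67e-06 from limma), whereas Il21 did not pass the test. Also near Il21, Bbs12, Spata5 and Cetn4 were higher, by 1.22, 1.16 and 0.71 on the log2 scale, and Adad1 was lower (-0.55). All values of Bbs12 and Spata5 lay below 6.76. Il17f, the paralogue beside Il17a, read 6.93 and 6.68 against 6.55 and 6.26 (log2 fold change -0.41, adjusted p = 0.0562). In the same region Mcm3 and Mir133b were higher, by 2.03 and 0.635, and Pkhd1 was lower (-0.44). On chromosome 10, Mdm1 was higher by 0.89 and Gm9049 was lower (-0.37). Around Il9, none of the neighbours was higher, and the non-coding gene Gm10782, Fbxl21, Lect2 and Cxcl14 were lower by factors of 2.17, 1.48, 1.41 and 1.27.

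The stretches before the starts of the 5 chromosome 11 members are shown because these genes were all higher on the deposited values, each as the 250 bases that precede the start in RefSeq (GRCm38.p6). They lie at chr11:54267280-54267529 for Il3, chr11:54249900-54250149 for Csf2, chr11:53618666-53618915 for Il4 and chr11:53634703-53634952 for Il13, all on the minus strand, and at chr11:53720544-53720793 on the plus strand for Il5. Promoters were found in the table for all 10 members, and of the 2 starts listed for Il4 the outer one was used. Capitals mark the letters GGAAA (the core of NFAT sites), TGANTCA (AP-1 sites), GATAA (GATA sites) and TATAAA (the TATA box), searched on both strands, and no match of one motif overlapped another motif.
Il3: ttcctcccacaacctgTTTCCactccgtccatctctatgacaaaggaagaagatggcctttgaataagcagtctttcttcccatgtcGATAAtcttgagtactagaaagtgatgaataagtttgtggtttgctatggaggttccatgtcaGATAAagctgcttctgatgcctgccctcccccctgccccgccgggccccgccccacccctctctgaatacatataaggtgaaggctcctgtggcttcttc
Csf2: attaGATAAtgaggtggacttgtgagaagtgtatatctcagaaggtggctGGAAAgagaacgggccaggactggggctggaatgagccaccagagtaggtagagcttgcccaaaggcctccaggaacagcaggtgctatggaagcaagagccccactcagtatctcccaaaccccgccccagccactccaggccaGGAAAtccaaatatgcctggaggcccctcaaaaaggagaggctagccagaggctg
Il4: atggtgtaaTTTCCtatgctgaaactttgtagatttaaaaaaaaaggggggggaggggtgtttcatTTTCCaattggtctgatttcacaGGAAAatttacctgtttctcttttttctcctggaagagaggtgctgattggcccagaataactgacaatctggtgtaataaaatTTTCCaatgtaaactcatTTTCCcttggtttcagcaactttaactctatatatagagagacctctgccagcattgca
Il5: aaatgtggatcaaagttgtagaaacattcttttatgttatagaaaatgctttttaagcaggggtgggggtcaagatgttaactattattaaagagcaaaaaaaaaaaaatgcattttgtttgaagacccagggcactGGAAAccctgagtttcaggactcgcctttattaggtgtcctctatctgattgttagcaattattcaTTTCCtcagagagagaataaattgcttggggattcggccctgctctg
Il13: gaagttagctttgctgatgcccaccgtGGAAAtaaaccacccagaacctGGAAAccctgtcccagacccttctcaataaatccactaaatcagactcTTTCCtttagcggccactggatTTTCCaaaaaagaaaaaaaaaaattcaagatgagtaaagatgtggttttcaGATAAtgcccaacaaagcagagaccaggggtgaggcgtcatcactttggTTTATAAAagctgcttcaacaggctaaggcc
All 5 stretches hold GGAAA, with 1 match in Il3, 2 in Csf2, 5 in Il4, 2 in Il5 and 4 in Il13, and 55.6% of all 32851 RefSeq stretches of the same length hold it. GATAA occurs in Il3, Csf2 and Il13, and in 22.6% of all stretches. TATAAA occurs in Il13 alone among these 5, where 1 stretch of letters was counted once on each strand, and in 12.4% of all stretches. TGANTCA occurs in none of the 5, and in 6.75% of all stretches. Of the other members, Il9 and Il17a hold TGANTCA, Il17a, Ifng and Il22 hold TATAAA, and Il9, Ifng, Il21 and Il22 hold GGAAA. Members that rose and members that did not pass the test thus both hold these letters, and a match describes the sequence and not a site in use.

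Of the further cytokines that T-cells make, most were higher on the deposited values. Of 16 measured genes of this list, 9 were higher, 3 lower and 4 did not pass the test, with a median log2 fold change of 1.23. Beside Il2, Lta (lymphotoxin alpha), Ebi3 (a subunit of IL-27 and IL-35) and Lif (leukemia inhibitory factor) were higher, by 2.35, 2.32 and 2.22 on the log2 scale. Both resting values of Lif lay below 6.76. Il10, the anti-inflammatory cytokine gene, read 6.44 and 6.46 in resting against 6.46 and 6.90 in proliferating Tregs, groups that overlapped (adjusted p = 0.266). Centred on the Cd3 genes, which left 1.48% of all genes higher and 94.7% lower, 3 genes of this list were higher and 10 lower.

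Receptors of the 10 cytokines were called in both directions. Of 17 measured receptor genes, 8 were higher, 4 lower and 5 did not pass the test, with a median of 0.12. Ifngr1, the ligand-binding chain for IFN-γ, read 8.17 and 8.25 in resting against 10.35 and 10.51 in proliferating Tregs, a 4.66-fold increase (adjusted p = 1.99e-05 from limma). Il10rb, a chain shared by the receptors of IL-22 and IL-10, and Csf2rb2, the mouse β-chain for IL-3, were higher by 1.10 and 0.90. All 4 values of Csf2rb2 lay below 6.76. The receptor gene of IL-4, Il4ra, was 1.81-fold higher and that of IL-21, Il21r, 1.59-fold. Il9r, the IL-9 receptor gene, was higher in resting Tregs, 1.82-fold (adjusted p = 0.00176), opposite to its ligand gene Il9. Centred on the Cd3 genes no receptor gene was higher and 16 were lower, near the shares over all genes (1.48% and 94.7%).

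Among transcription factors of the helper lineages, 6 of 16 measured genes were higher, 2 lower and 8 did not pass the test, with a median of 0.13. Stat4, which transmits IL-12 signals, and Maf, an activator of Il4 in Th2 cells, were higher by 1.51 and 1.13 on the log2 scale. Gata3, the Th2 factor, read 7.45 and 7.46 in resting against 8.51 and 8.45 in proliferating Tregs, 2.04-fold higher. Tbx21, the Th1 factor T-bet, read 7.22 and 7.14 against 6.96 and 6.69 (log2 fold change -0.35, adjusted p = 0.0674). Bcl6 and Ascl2, factors of follicular helper cells, were 2.04-fold and 2.30-fold higher in resting Tregs. Centred on the Cd3 genes, none of these factors was higher and all 16 were lower, where 94.7% of all genes were lower.

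Of 17 measured factors that act on cytokine genes after activation, 8 were higher, 2 lower and 7 did not pass the test, with a median of 0.40. The AP-1 family genes Batf, Junb and Jund were higher by 1.93, 1.51 and 1.08, and Fosb was lower by a factor of 2.03. Nfatc2 was 1.55-fold higher, and Nfatc1, with a log2 fold change of -0.10, did not pass the test (adjusted p = 0.504). After centring on the Cd3 genes none was higher and 16 were lower, again near the 94.7% of all genes.

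Most genes that IFN-γ induces were higher on the deposited values. Of 15 measured genes, 11 were higher and 4 lower, with a median of 1.46. Igtp, an interferon-inducible GTPase gene, read 6.25 and 6.22 in resting against 9.57 and 9.50 in proliferating Tregs, a 9.91-fold increase. Its relative Iigp1, the signaling inhibitor gene Socs1 and the immunoproteasome gene Psmb9 were higher by 2.77, 2.68 and 2.27 on the log2 scale. Resting values of Igtp, Iigp1 and Socs1 lay below 6.76. Cxcl9, Ciita, Nos2 and Ido1 were lower, and all values of Nos2 and Ido1 lay below 6.76. The chemokine genes Cxcl10 and Cxcl11 of the same list were higher, by 1.74 and 0.40. Both resting values of Cxcl10 lay below 6.76. Myeloid cells and B-cells are known to express Ciita. Socs1 also responds to IL-2, and other interferons induce most of this list. Centred on the Cd3 genes, 3 were higher and 8 lower, where 1.48% and 94.7% of all genes were.

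Genes that IL-4 and IL-13 induce in macrophages, dendritic cells and B-cells gave 6 higher, 3 lower and 5 that did not pass the test of 14, with a median of 0.17. The chemokine gene Ccl17 read 5.59 and 5.49 in resting against 9.07 and 9.14 in proliferating Tregs, an 11.8-fold increase. Retnla, a secreted marker of alternatively activated macrophages, was 11.6-fold higher, and Cish, which STAT5 also induces, was 11.5-fold higher. Resting values of Ccl17 and of Retnla (4.91 and 4.75) lay below 6.76, so their folds are set against a signal not clearly above background. Fcer2a, the IgE receptor gene that is also a B-cell marker, was 4.48-fold higher in resting Tregs. After centring on the Cd3 genes, 3 genes were higher and 9 lower, where 1.48% and 94.7% of all genes were.

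**Figure D4:**
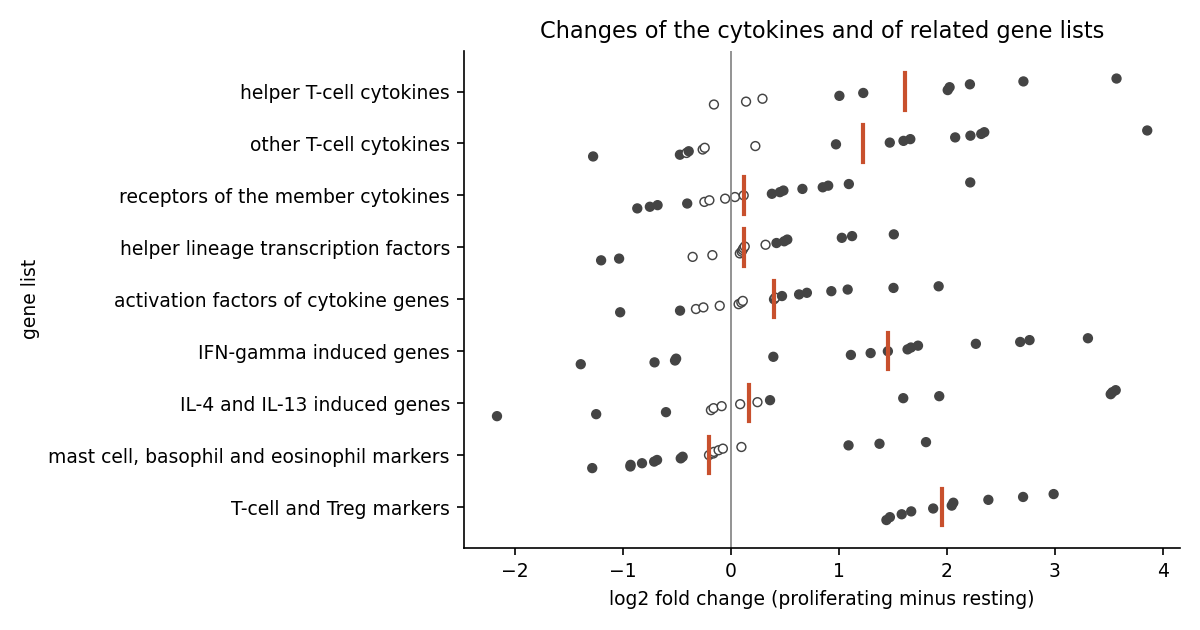
Each point is 1 gene and gives its log2 fold change (proliferating minus resting, x axis), filled where it passed the test and open where it did not, with the median of each list as a red bar. The medians of the helper T-cell cytokines (1.62), other T-cell cytokines (1.23) and genes induced by IFN-γ (1.46) lie to the right of those of the receptors (0.12), lineage factors (0.13) and mast cell, basophil and eosinophil markers (-0.20). The median of the T-cell and Treg markers (1.96) lies furthest to the right.

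Cells other than Tregs also make these cytokines, and their markers moved with the groups in part. The methods describe an isolation of CD4+ T-cells before the culture and a sort of CD11c+ G-BMDCs, which were then added to them. After the culture, a sort by dye dilution parted resting from proliferating Tregs. Only the CD4+ T-cells are described as dyed, and the methods name no separate step that removed the G-BMDCs. Neutrophil and B-cell markers were high in the resting arrays. Basophils and mast cells are known sources of IL-4, IL-13 and IL-3. Of 17 measured markers of mast cells, basophils and eosinophils, 3 were higher and 8 lower in proliferating Tregs, and 12 lay at or below the olfactory limit of 6.76 in all arrays. The mean log2 level of the list was 5.90 and 5.82 in resting Tregs against 5.71 and 5.72 in proliferating Tregs. The protease genes Cpa3 and Mcpt8 read 5.92 and 5.70 against 7.58 and 7.65, and 5.58 and 5.74 against 6.98 and 7.09, increases of 3.51-fold and 2.60-fold. The IgE receptor chain gene Fcer1a was 2.13-fold higher, with all 4 values below 6.76. The other IgE receptor chain gene Ms4a2 read 5.56 and 5.55 against 5.47 and 5.34 (adjusted p = 0.322), and Gata2 and Hdc were lower. Their part in the increase of Il3, Il4 and Il13 was not tested.

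Innate lymphoid, NK- and CD8 T-cells are known sources of IFN-γ, IL-5 and IL-13. Of 10 measured markers of these cells, 2 were higher, 3 lower and 5 did not pass the test, with a mean log2 level of 6.66 and 6.64 in resting Tregs against 6.80 and 6.82 in proliferating Tregs, and 4 lay at or below 6.76 in all arrays. The chemokine gene Xcl1 was 11.7-fold higher in proliferating Tregs, whereas Cd8a, Cd8b1 and the NK-cell receptor gene Ncr1 were lower. Of 14 measured dendritic and myeloid markers 7 were higher and 4 lower, with a mean log2 level of 7.29 and 7.34 against 7.44 and 7.37, and 3 lay at or below 6.76 in all arrays. The 7 higher genes were Cd68, Lyz2, Adgre1, Cd14, Fcgr1, Csf1r and Mertk, which macrophages express, and they rose by 0.50 (Mertk) to 1.80 (Cd68) on the log2 scale. The 4 lower genes were the MHC class II genes H2-Ab1 and H2-Aa and the dendritic cell genes Flt3 and Zbtb46, and H2-Ab1 was 5.91-fold higher in resting Tregs. The division of this list into macrophage and dendritic cell genes was made after the values were seen, and Itgax, Itgam and Cd209a did not pass the test. Retnla and Ccl17, which macrophages and dendritic cells make, were higher. Chil3, of the same list as Retnla, was 2.37-fold lower (adjusted p = 6.65e-04 from limma), and Mrc1, Mgl2 and Clec10a did not pass the test. The part of all these cell types in the cytokine results and in those of Retnla and Ccl17 was not tested.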

How the data were processed

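The authors deposited log2 expression values of 4 Affymetrix arrays. The submitters' notes name RMA and Partek 6.6, whereas the methods name housekeeping normalization, R and an array design to which these probe identifiers do not belong. RMA usually brings the signals of all arrays to a common distribution, which removes differences in total RNA, but the median of the deposited values was 6.27 in each resting array and 6.00 and 5.97 in the proliferating arrays. Probe sets were named by the platform annotation (23328 of 23521 with 1 gene name matched RefSeq, GRCm38.p6, by gene identifier), and the brightest represented its gene. limma 3.58.1 (R 4.3.3, lmFit and eBayes) compared proliferating with resting Tregs over 22180 genes, with Benjamini-Hochberg adjustment, and was tested on simulated data. It drew on 2 residual and 5.48 prior degrees of freedom, and gave 95% intervals. By exact permutation, 2 arrays against 2 cannot give a two-sided p below 0.333, and the number of arrays limits the precision. The olfactory limit is a rough guide, since probe sets differ in affinity.

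Named are the 10 members, up to 4 called genes of a list by size of change, receptors and lineage factors paired with a member, genes within 200 kb of a member and markers of other cells. Il10, Nfatc1, Nfatc2, Chil3, Mrc1, Mgl2, Clec10a, Cxcl10, Cxcl11 and the lower genes of the IFN-γ list were named after their values were seen. Members and lists were chosen with earlier results of these data known. Alternatives covered the prior, dim genes, the choice of probe sets, quantile normalization, 4 centrings, a replicate block, the t-tests of the methods, a minimum log2 fold change of 1 and the omission of each array.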

Additional observations from a re-analysis of the deposited data

How the results depend on the processing

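The count of 7 higher and 0 lower members stayed when either array of either group was left out (7 to 7 and 0 to 0), with a trended and robust prior, with the replicate block, with the mean of the probe sets, at a minimum log2 fold change of 1 and by the methods' t-test without adjustment. After adjustment the methods' t-test called 4 members and lost Il4, Il5 and Ifng (adjusted p = 0.0971, 0.0611 and 0.0504). The methods' paired t-test called 0 members after adjustment, and 0 genes higher and 2 lower in all. At an unadjusted p under 0.05 it called 4 members higher and 0 lower, where 3000 and 2515 of all 22180 genes were. With dim genes left out, 3 members were tested and higher (Csf2, Il3 and Il13), of which Csf2 and Il3 passed the filter only through the group where they are high. Centring on housekeeping genes gave 4 members lower, and centring on the Cd3 genes 2 higher and 5 lower. Log2 fold changes of Il4, Ifng, Il17a and Il21 turned to -0.41, -0.19, -1.13 and -1.28 with the former and to -0.96, -0.74, -1.67 and -1.83 with the latter. Il22 turned to 0.12 after quantile normalization, 0.0782 after median centring, 0.0811 after centring on olfactory receptors and 0.0434 without proliferating replicate 2 (from -0.35 to 0.0434 with each array left out), and passed the test under none of these.

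Over all genes, 5688 were higher and 7647 lower. The trended and robust prior gave 5883 and 7656, and the mean of the probe sets 5674 and 7635. By the methods' t-test without adjustment 5022 were higher. Housekeeping centring gave 922 and 19605, Cd3 centring 329 and 21009, and the other counts were 2781 and 1531 by the methods' t-test with adjustment and 2796 and 981 at a minimum log2 fold change of 1. The count of lower genes was 1656 with dim genes left out, 4044 after median centring, 4017 after centring on olfactory receptors and 5072 by the methods' t-test without adjustment. With each array left out in turn it ranged from 3962 (without resting replicate 1) to 7537, with 4428 without resting replicate 2. With 1 array left in a group, that array is assumed to vary like the other group. Deviations of same-numbered arrays had a correlation of 0.0179, which with 2 arrays a group does not settle whether same-numbered arrays came from 1 culture, and the replicate block called 7 members and 5765 higher and 7929 lower genes. The cause of these shifts was not tested. Signal over background limits the folds of Csf2, Il3, Il5 and Il9, whose resting values lay below the olfactory limit, and those of Il4 and Ifng, whose values all did.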
